A study of Homo sapiens with 6 samples.

Results

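Retrocopies of cytosolic ribosomal protein genes were followed in long-read cDNA libraries of Calu-6, a human lung carcinoma cell line. They were found by symbol, as genes named for a ribosomal protein gene followed by P and a number. Of the 10072 genes in the count table, 176 matched this rule, and Gencode annotates 174 of them as processed pseudogenes. The other 2 were RPS19BP1, a protein-coding gene for a binding partner of RPS19 with 84 counts, and a lncRNA that carries the symbol RPL23AP7 (ENSG00000291064.1) with 113 counts. Neither is a processed pseudogene, and both were left out below. Their log2 fold changes were -0.0037 and 0.33, with adjusted p = 0.998 and 0.525 by edgeR's quasi-likelihood test.

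The cells had been transfected with 10 nM siRNA for 48 h. Cells of the siControl group received a non-targeting siRNA, and cells of the siDelta2-4 group an siRNA against the junction of exon 1 and exon 5 that marks the Delta 2-4 splice variant of TERT, the telomerase reverse transcriptase. Each group had 3 libraries, and the study compared them to find the transcripts that change when this variant is targeted. The labels call all 6 samples wild type, while the column names of the table carry the word Empty, which the study uses for cells with a stably introduced empty vector. Both groups carry this word. The replicate numbers of the labels could not be tied to the columns, so libraries are named by group and by the rank of their total count: C-high, C-mid and C-low for siControl, D-low, D-mid and D-high for siDelta2-4. Values per library are given in this order. The study speaks of biological replicates, while the labels do not say whether the libraries came from separate cultures, so p-values measure the spread between these libraries, which may be technical in part.

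The libraries held between 1037468 and 1309241 counts. TERT had no row in the table, so the knockdown itself was not analysed here. Of the epithelial markers, KRT8 and KRT18 had 824 and 1124 counts over the 6 libraries, whereas KRT19 had 1, EPCAM 13 and CDH1 0. The mesenchymal marker VIM had 987 counts, and FN1 had 2. The lung epithelium markers NKX2-1, SFTPC and SCGB1A1 and the endothelial and fibroblast markers were at 0, and of the leukocyte markers PTPRC was at 0 and CD74 at 2. Every one of the 21472 transcript models in the table had a count in siDelta2-4, so a gene seen in siControl alone could not be observed.

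Ribosomal proteins build the large (RPL) and small (RPS) subunits of the ribosome together with ribosomal RNA, and their mRNAs are among the most abundant in dividing cells. A retrocopy arises when an mRNA is reverse transcribed and inserted elsewhere in the genome, so it lacks the introns of its parent gene and usually its promoter. Ribosomal protein genes have left more retrocopies in the human genome than most gene families. A recent retrocopy differs from the spliced parent mRNA at few positions, so that a cDNA read of one can be aligned to the other.

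The sequences shown here are of copies counted below: copies that are identical to their parent within the coding sequence and copies that differ at a few positions. How far these positions decide where a read was counted was not tested. Each was read from GRCh38, and each parent stretch from the spliced coding sequence of the Gencode canonical transcript, with positions counted from 1 at the start codon. Capitals mark positions at which a copy differs from its parent. Over its whole coding sequence of 210 bases, RPS28 was identical to RPS28P7 (chr11:82689559-82689768, plus strand), and RPL39 over 156 bases to RPL39P3 (chr6:73373108-73373263, minus strand).
RPS28 and RPS28P7: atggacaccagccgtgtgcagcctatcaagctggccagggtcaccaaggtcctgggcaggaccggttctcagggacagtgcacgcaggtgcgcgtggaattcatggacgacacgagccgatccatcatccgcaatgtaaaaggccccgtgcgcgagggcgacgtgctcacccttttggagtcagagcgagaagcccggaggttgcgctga
RPL39 and RPL39P3: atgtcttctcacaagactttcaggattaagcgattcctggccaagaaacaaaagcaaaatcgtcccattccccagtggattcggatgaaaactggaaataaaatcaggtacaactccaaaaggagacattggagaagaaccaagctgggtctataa

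RPL13AP5 differed from the coding sequence of RPL13A at 3 positions, C105T, G206T and A273G (the parent base, its position, the base of the retrocopy). The stretch from position 194 to 283 holds 2 of them, and lies at chr10:96750481-96750570 on the plus strand in the retrocopy. These single bases are the only differences between the copy and the spliced parent within the coding sequence. In the genome the parent has 8 exons and the copy lacks its introns, so an alignment does not rest on these bases alone.
RPL13A: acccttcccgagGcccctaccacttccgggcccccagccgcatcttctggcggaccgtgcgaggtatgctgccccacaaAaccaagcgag
RPL13AP5: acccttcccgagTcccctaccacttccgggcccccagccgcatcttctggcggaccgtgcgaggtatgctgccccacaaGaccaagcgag

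RPL10 has 2 well-counted copies, RPL10P9 and RPL10P16, each with 7 substitutions, of which G605A is in both. From position 274 to 393 their differences fall at separate positions, so this stretch tells the copies from each other as well as from the parent. RPL10P9 is at chr5:168616625-168616744 on the plus strand and RPL10P16 at chr19:12643527-12643646 on the minus strand.
RPL10: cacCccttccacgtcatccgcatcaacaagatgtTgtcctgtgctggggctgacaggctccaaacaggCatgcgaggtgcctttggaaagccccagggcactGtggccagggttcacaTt
RPL10P9: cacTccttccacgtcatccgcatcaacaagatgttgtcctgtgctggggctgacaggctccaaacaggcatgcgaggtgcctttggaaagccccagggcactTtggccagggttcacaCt
RPL10P16: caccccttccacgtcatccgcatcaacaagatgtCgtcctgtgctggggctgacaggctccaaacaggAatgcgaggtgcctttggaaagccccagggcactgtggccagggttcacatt

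RPS15P4 carries 9 bases that the RPS15 coding sequence lacks, beside 3 substitutions (C66G, C218A and T384C). The first of these and the extra bases lie between positions 46 and 120 of RPS15 (chr2:171517588-171517671, minus strand). RPL21P16 was identical to the coding sequence of RPL21, and RPL21P28 differed from it at G6A, T134C and C294T.
RPS15: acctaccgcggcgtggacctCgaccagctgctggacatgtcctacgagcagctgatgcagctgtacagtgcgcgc
RPS15P4: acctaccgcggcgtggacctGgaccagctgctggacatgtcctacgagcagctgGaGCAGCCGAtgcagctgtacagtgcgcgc

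The 174 retrocopies held 430370 of 6784575 counts, or 6.34%, and came from 63 parent genes. Their parents held 956296 counts, so that 31.0% of the counts of these families lay on retrocopies. Large subunit copies numbered 110 in 40 families and held 75.5% of the retrocopy counts, and small subunit copies numbered 64 in 23 families with 24.5%. A long read covers a cDNA once, so counts of retrocopies and parents were set side by side without dividing by length. The cDNA had been amplified by PCR, so several reads can come from 1 molecule, and the median model length was 470.5 bases for the copies tested below and 886 for parents. The part of length in the counts was not tested.

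The counts were concentrated on few loci. The 5 most counted retrocopies held 40.8% of all retrocopy counts, the 12 most counted 72.2% and the 20 most counted 88.8%. At least 1000 counts were reached by 35 retrocopies and at least 100 by 55, while 77 had at most 10 counts and 22 had a single count. A count in all 6 libraries was found for 92. In siControl 31 had no count. A copy without a count in siDelta2-4 could not be seen, since every row has one there. None of these 31 had more than 3 counts in siDelta2-4, as in RPL35AP36 with 3 and RPL12P38, RPS2P7 and RPS4XP2 with 2 each.

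RPL13AP5, the copy of the large subunit gene RPL13A, had 40748 counts against 5278 on its parent. RPS28P7 had 35128 counts, and RPS28, which encodes a small subunit protein, had 345. RPL7P9 followed with 29377 counts and RPL36AP37 with 27483, where RPL7 and RPL36A had 887 and 975. These 4 copies had between 7.72 and 102 times the counts of their parents.

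**Figure D1:**
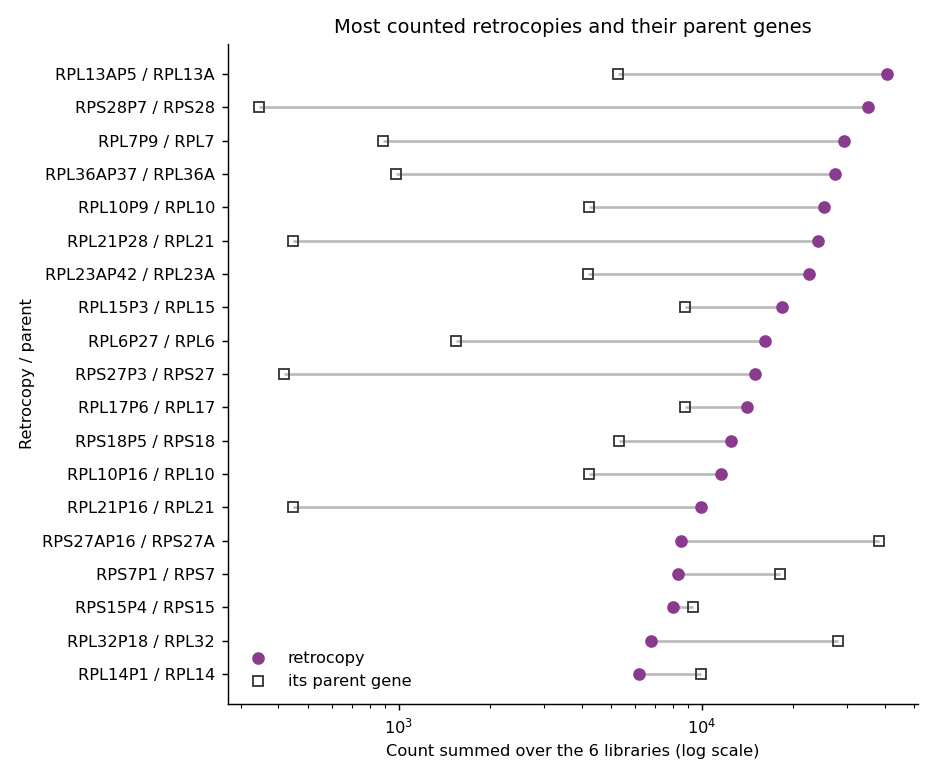
Counts summed over the 6 libraries (log scale) for 19 of the 20 most counted retrocopies (filled circles) and the parent gene of each (open squares). The retrocopy lies to the right of its parent in the upper 14, and to the left of it from RPS27AP16 on, which had 8498 counts against 38225 on RPS27A.

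Of the 174, 17 retrocopies had more counts than their parents. Beside the 4 above, they included RPL10P9 with 25211 counts (4221 on RPL10), RPL21P28 with 24030 (448 on RPL21), RPL23AP42 with 22497 (4200 on RPL23A), RPL15P3 with 18310 (8768 on RPL15), RPL6P27 with 16070 (1543 on RPL6), RPS27P3 with 14892 (418 on RPS27) and RPL17P6 with 14068 (8765 on RPL17). They also included RPS18P5 with 12437 (5312 on RPS18), RPL10P16 with 11544, RPL21P16 with 9906, RPL36AP44 with 3803 and RPL39P3 with 2280 (1211 on RPL39). RPS27 and RPS18 encode small subunit proteins, and the others large subunit proteins. The counts given to RPL36AP44 lay on spliced models that reach beyond the copy, as described below, so they do not measure the retrocopy.

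In 17 of the 63 families more counts lay on retrocopies than on the parent, and in 7 the share exceeded 90%. Among them were RPS28 (99.0%), RPL21 (98.7%), RPS27 (97.4%), RPL7 (97.1%), RPL36A (97.0%) and RPL6 (91.3%), followed by RPL10 with 89.7% and RPL13A with 88.5%. At the other end, 22 families had less than 1% on retrocopies. RPLP1, which encodes an acidic protein of the ribosomal stalk, had 73693 counts on the parent and 4 on its copy, RPS14 had 40175 and 2, and RPL19 had 33596 and 1. The share on copies thus ranged from nearly none to nearly all between families.

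The split was steady from library to library. In 38 of the 43 families with at least 100 retrocopy counts, the share moved by less than 5 percentage points between its lowest and highest library. The exceptions were RPL39 with a range of 47.4 points, RPL41 with 20.9, RPS26 with 14.3, RPL9 with 11.8 and RPS2 with 11.0. In the RPL39 family 1 library stood apart, C-high.

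**Figure D2:**
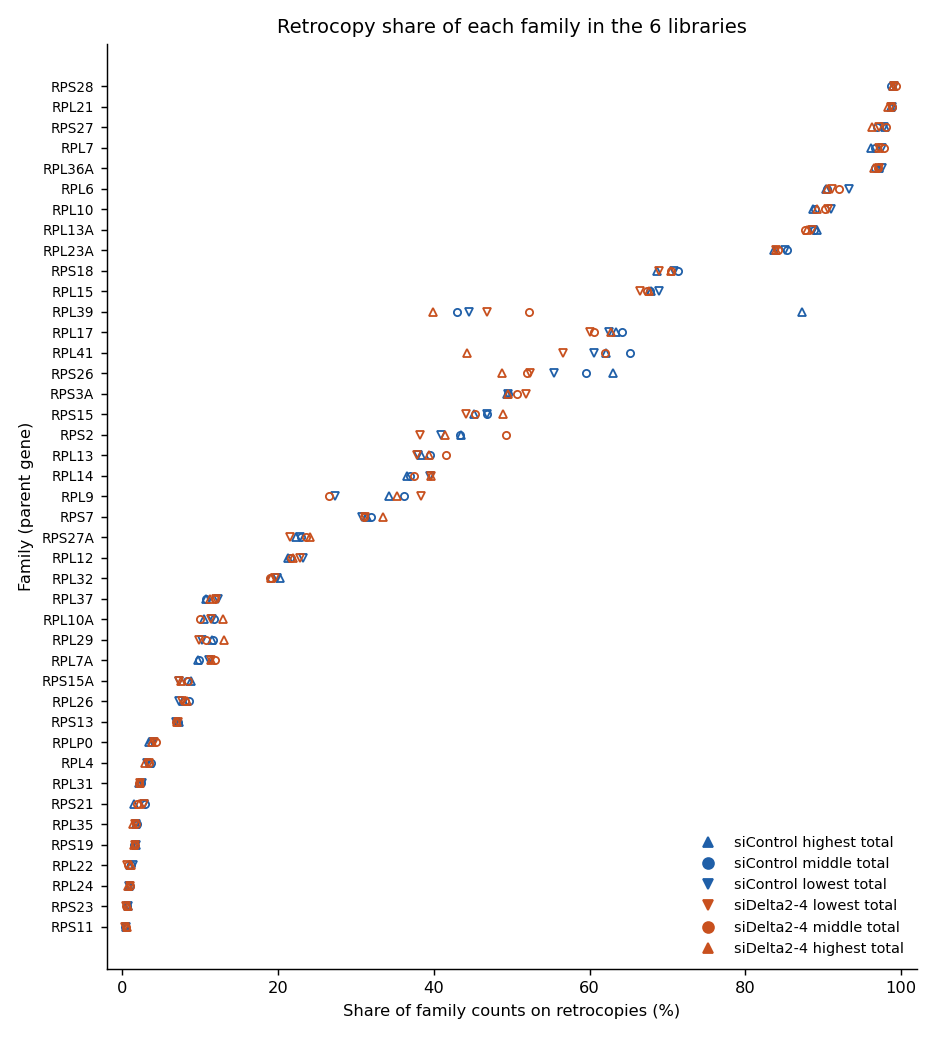
Share of each family's counts that lay on its retrocopies (percent), for 42 of the 43 families with at least 100 retrocopy counts. Each symbol is 1 library (blue, siControl; orange, siDelta2-4; the shape marks the rank of its total count). Symbols lie on top of each other in most families, and RPL39 spreads over 47.4 points.

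Copies in the table were more like their parents than copies without a row. The parent coding sequence was aligned to each of the 1571 annotated processed pseudogenes that match the rule. Identity was the percent of the coding length left after every substitution, absent base and extra base was subtracted. All 33 copies with more than 99% identity were in the table, and they held 75.2% of the retrocopy counts. The share present was 76.5% (26 of 34) between 98 and 99%, 41.9% (54 of 129) between 95 and 98%, 11.1% (43 of 387) between 90 and 95%, 2.01% (12 of 597) between 80 and 90% and 1.53% (6 of 391) up to 80%. Median identity was 96.6% for the 174 in the table and 85.8% for the 1397 annotated copies without a row, among which the highest was 98.7%.

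**Figure D3:**
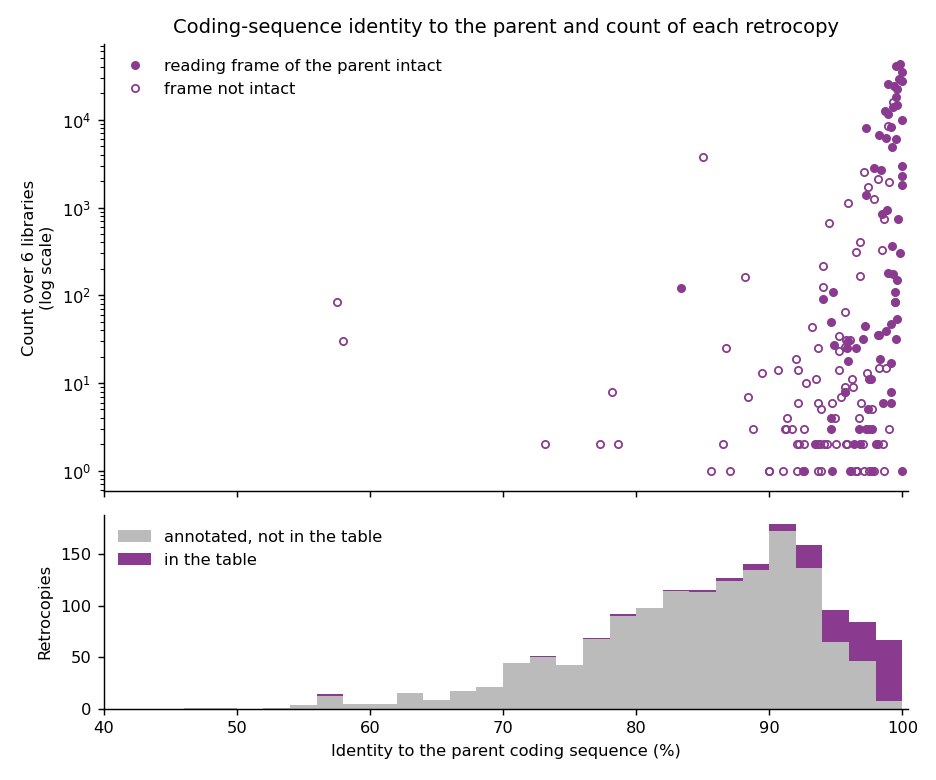
Above, count over the 6 libraries (log scale) of each of the 174 retrocopies against its identity to the parent coding sequence (percent), with filled circles for copies whose reading frame is intact. Below, all 1571 annotated copies by identity in steps of 2 points, with those in the table in purple, which make up most of the last step and few of the copies under 90%.

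The 7 copies with no difference from the parent coding sequence were all in the table: RPS28P7, RPL36AP37, RPL21P16, RPL41P5, RPL39P3, RPL41P1 and RPL41P2, with counts from 35128 down to 1. Among the 174, Spearman's rho of identity and count was 0.54, given as a description, since copies of 1 family share a parent. In 54 of the 63 families the most counted copy was also the nearest to the parent or tied for nearest. A reading frame from start to stop codon without an interruption was kept in 77 of the 174, in 26 of the 35 with at least 1000 counts, and in 65 of the 1397 without a row. Because reads of near-identical copies can be assigned to either, the count of a single copy is uncertain, and the family total does not depend on how reads were assigned within the family.

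Most copies were counted as the single exon that the annotation gives them. Of 187 transcript models of retrocopies, 175 were annotated and 171 had 1 exon, and models of 1 exon held 99.0% of the counts. The 12 unannotated models belonged to RPL36AP44 and RPS7P1. RPS7P1 had 3 of them, with 282 of its 8340 counts, and the others belonged to RPL36AP44, whose 9 models had 2 to 14 exons. The most counted of these had 13 exons and 1571 bases and held 75.7% of the counts of RPL36AP44, while the annotated copy is 312 bases long. The counts given to RPL36AP44 therefore lay on spliced models that reach beyond the retrocopy. They enter the number of copies that exceed their parent, the RPL36A family and the pairs of copies compared below.

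Of the 174 copies, 101 overlap another annotated gene, 46 on the same strand and 69 on the opposite strand. For the 35 with at least 1000 counts, 12 counted genes lay on the opposite strand, and the ratio of the gene's count to that of the retrocopy had a median of 1.12. RPL32P18, in an intron of NUDCD3, had 6767 counts and NUDCD3 6737. RPL21P28 had 24030 and DTL 20600, and RPS27P3 had 14892 and TSPAN9 18521. In 10 of the 12 the most counted model of the opposite gene had a single exon, and it was 552 bases long for LINC02067 opposite RPL23AP42, whose own model has 471. In 10 of the 12 pairs the ratio lay between 0.840 and 1.47. The counts of these copies are uncertain, since reads of a copy and of a gene on the opposite strand could not be told apart here.

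The pairs with PIGK, OOEP-AS1 and ANXA2 stood apart. PIGK, opposite RPL17P6, had 28 counts against 14068. OOEP-AS1, opposite RPL39P3, had 32262 counts against 2280, or 14.2 times as many. ANXA2, opposite RPL36AP44, had 4696 counts against 3803, on a most counted model of 13 exons and 1554 bases. On the same strand only NBEAL1 and BAIAP2L1 were counted beside a copy with at least 1000 counts, with 15 and 1 counts.

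To ask whether retrocopies changed between the siRNA groups, all genes were tested with edgeR's quasi-likelihood test, and a gene was called at an adjusted p under 0.1. The filter on low counts left 60 of the 174 retrocopies, which held 99.7% of their counts. Of these 60, 12 were called, 11 lower and 1 higher in siDelta2-4, or 1 in 5, beside 13.0% of all 3888 genes tested (5.97% lower and 7.00% higher). At an unadjusted p under 0.05 there were 17. The share of all genes at that limit is not given, so the 17 cannot be read as an excess. Groups did not overlap in 14 copies that were lower and 4 that were higher, beside 12.3% and 13.9% of all genes.

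Among large subunit copies 7 of 38 tested were called, all 7 lower, with a median log2 fold change of -0.10. Among small subunit copies 4 of 22 were called lower and 1 higher, with a median of -0.09. The median over the 60 copies was -0.09, beside 0.03 for all genes tested, and 49 of the 60 lay below 0. Scaling by library totals alone moved copies and other genes alike, so that 35 of 60 lay below 0 (median -0.02, all genes 0.09) while the copies stayed 0.115 below the median of all genes, as they were with TMM. After a trend on length had been removed in each library, 30 of 60 lay below 0, and the medians were -0.0032 for the copies and -0.0090 for all genes. The tested copies had a median length of 470.5 bases and all tested genes 1143 bases. The number called was 7 without C-high, 19 without C-low, 6 without D-high and 7 without D-mid, beside 7.27%, 25.4%, 6.99% and 4.85% of all genes tested in those fits.

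RPL13AP5 had the largest change among the 20 most counted copies. Its normalised level, in CPM (counts scaled to a common TMM-normalised library size), was 7421, 7213 and 6827 in siControl, and 5263, 4708 and 5069 in siDelta2-4. All 3 siDelta2-4 libraries lay below all 3 of siControl. The mean fell from 7154 ± 301 to 5013 ± 282 CPM (SD, n = 3 each), a change of -0.51 ± 0.08 on the log2 scale (SE, edgeR quasi-likelihood test, adjusted p = 9.84e-05). Its parent RPL13A fell by 0.38 on the log2 scale (adjusted p = 0.0034, edgeR).

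Both copies of RPL10, a large subunit protein that joins late in ribosome assembly, fell as well. RPL10P9 was at 4474, 4409 and 4103 CPM with siControl and at 3287, 3057 and 3207 CPM in siDelta2-4, a change of -0.44 ± 0.08 on the log2 scale (SE, edgeR adjusted p = 0.000377). RPL10P16 was at 2056, 1977 and 1859 CPM and at 1519, 1404 and 1496 CPM, with a log2 fold change of -0.41 ± 0.08 (edgeR adjusted p = 0.00114). Neither overlapped between groups. RPL10 itself fell by 0.52 (edgeR adjusted p = 0.00232). RPL10P16 made up 31.2% ± 0.265 of the counts of the pair with siControl and 31.6% ± 0.175 with siDelta2-4 (SD, n = 3 each), and these shares overlapped.

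RPS15P4, a copy of a small subunit gene, was at 1337, 1341 and 1279 CPM in siControl and 1082, 1001 and 1078 CPM in siDelta2-4, again without overlap. It fell by 0.32 on the log2 scale (SE 0.08, edgeR adjusted p = 0.0109), and RPS15 by 0.31 (edgeR adjusted p = 0.0214). RPL13AP5, RPL10P9, RPL10P16 and RPS15P4 were the 4 copies of the 12 that were called in all 6 fits that left out 1 library, and in all 9 other alternatives.

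RPL32P18 lay between 1026 and 1225 CPM in siControl and between 822 and 947 CPM in siDelta2-4. Its log2 fold change was -0.30 ± 0.09 (SE, edgeR adjusted p = 0.0297), that of its parent RPL32 was -0.25 (0.0444), and that of NUDCD3 on the opposite strand was -0.30 (0.0247). RPS27P3 lay between 2208 and 2908 CPM in siControl and between 1885 and 2063 CPM in siDelta2-4, a log2 fold change of -0.31 ± 0.09 (edgeR adjusted p = 0.0347), and TSPAN9 opposite it had -0.36 (0.0117). Of the counts given to NUDCD3 and TSPAN9, 99.9% and 100% lay on models of 1 exon, with 466 and 339 bases. These values are thus not of spliced mRNAs of NUDCD3 and TSPAN9. RPS27, with 418 counts in all, had -0.08 (adjusted p = 0.858). Neither copy overlapped between groups. Calls were lost without C-high (RPL32P18 adjusted p = 0.125, RPS27P3 0.264), without D-mid (RPL32P18 0.193), and without D-high and D-low in turn (RPS27P3 0.159 and 0.116). They were lost as well when the trend on length was removed (RPL32P18 0.121, RPS27P3 0.213).

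RPS28P7 and RPL21P16, both identical to their parents in the coding sequence, were lower by smaller amounts. RPS28P7 was at 6233, 5309 and 5226 CPM with siControl and at 4806, 4800 and 4830 CPM in siDelta2-4, a change of -0.21 ± 0.08 on the log2 scale (SE, edgeR adjusted p = 0.0937). It was the called copy nearest the threshold, and RPLP0P6, a copy of the stalk protein gene RPLP0, was the next one that was not called, with 0.29 ± 0.12 (adjusted p = 0.124). RPS28 had -0.56 (edgeR adjusted p = 0.0657). RPL21P16 was at 1715, 1678 and 1422 CPM and at 1331, 1319 and 1346 CPM, a log2 fold change of -0.27 ± 0.08 (adjusted p = 0.0435), while RPL21 had 0.09 (0.797). Each of the 2 was called in 1 of the 6 fits that left out a library, that without C-low, and had adjusted p between 0.129 and 0.415 in the others. With the trend on length removed, adjusted p was 0.737 for RPS28P7 and 0.146 for RPL21P16. With a replicate block on the column numbers it was 0.215 for RPS28P7 and 0.112 for RPL21P16.

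The copies of RPL21 did not share this difference in equal measure. RPL21P28 had a log2 fold change of -0.04 ± 0.08 (edgeR adjusted p = 0.810). RPL21P16 held 31.9%, 30.7% and 29.9% of the counts of the 2 copies under siControl and 27.3%, 28.1% and 27.5% under siDelta2-4, without overlap. The family total of RPL21 was not called, with -0.12 ± 0.08 (adjusted p = 0.408). The split within a family was compared in the 6 families that have 2 copies with at least 1000 counts each, chosen after their values were seen, and it overlapped between groups in 4 of them. The other pair without overlap was RPL41P5 and RPL41P1, in which D-high stood apart. Another of the 6 pairs holds RPL36AP44, whose counts do not measure the retrocopy. Over all genes tested, CPM did not overlap between groups in 12.3% (lower) and 13.9% (higher). No such share was at hand for splits, so the pairs without overlap are given as a description.

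RPS2P46 and RPS26P6 were called at low counts. RPS2P46 had 119, 136 and 135 counts with siControl and 89, 142 and 112 with siDelta2-4, and its log2 fold change was -0.40 ± 0.14 (SE, edgeR adjusted p = 0.0688). Its parent RPS2 had -0.44 (0.0226). RPS26P6, the 1 copy called higher, had 11, 8 and 6 counts with siControl and 13, 24 and 21 with siDelta2-4, and its log2 fold change was 0.99 ± 0.34 (edgeR adjusted p = 0.0736). RPS26, a small subunit gene with 294 counts in all, had 0.68 (0.0269). RPS2P46 lost its call without C-mid (adjusted p = 0.216) and without D-high (0.250) or D-low (0.234). It was also lost with library totals alone (0.188), with the replicate block (0.104) and in DESeq2 (0.109). RPS26P6 lost its call without C-low (0.148), C-mid (0.218), D-high (0.181) or D-mid (0.290). The call was also lost without a filter on low counts (0.118) and with the replicate block (0.134), and DESeq2 gave RPS26P6 no adjusted p.

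**Figure D4:**
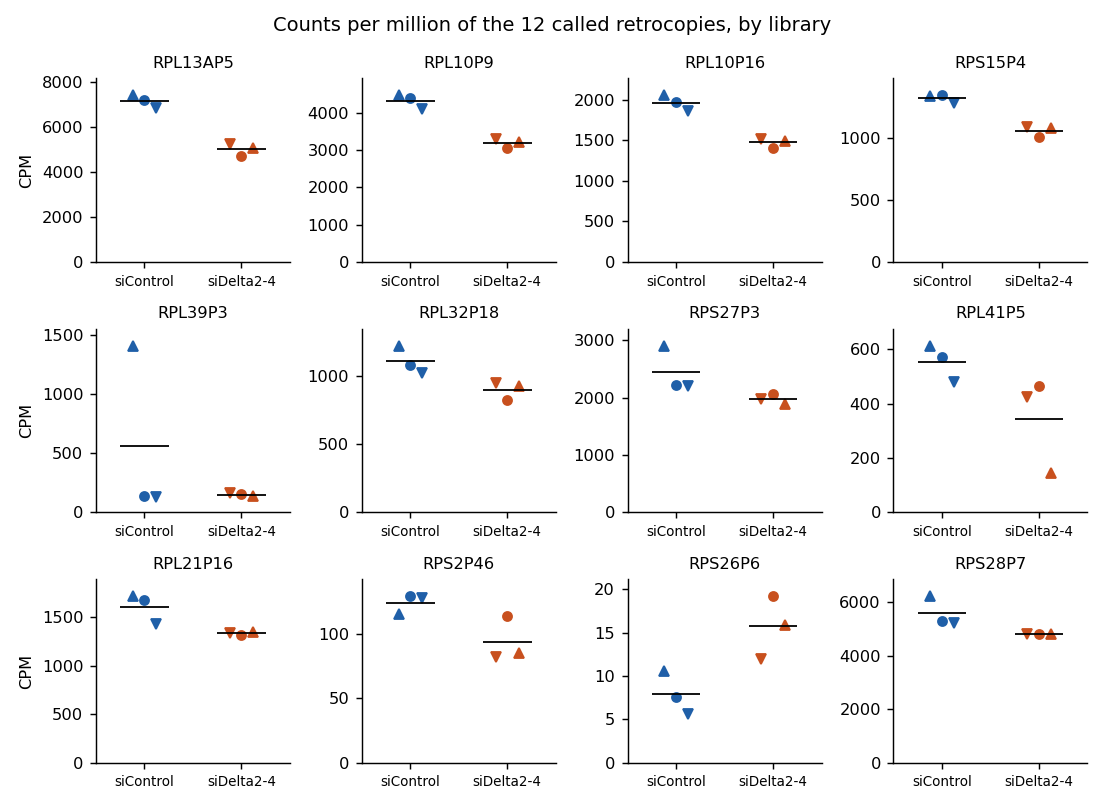
CPM of the 12 called retrocopies in each library, on axes that start at 0 (blue, siControl; orange, siDelta2-4; the shape marks the rank of the library's total, bars are group means, n = 3). RPL39P3 was high in 1 siControl library, RPL41P5 low in 1 siDelta2-4 library, and the groups overlap in RPL39P3 alone.

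For 2 called copies the size of the difference turned on 1 library. RPL39P3 had 1460, 142 and 134 counts in C-high, C-mid and C-low, against 173, 194 and 177 for siDelta2-4, so that the groups overlapped. Its log2 fold change was -1.89 ± 0.48 (SE, edgeR adjusted p = 0.0149) with all libraries, and 0.18 (adjusted p = 0.556) without C-high. RPL39 had -0.04 (adjusted p = 0.893). Adjusted p of RPL39P3 was 0.127 without D-mid and 0.128 with the replicate block, and DESeq2 gave it no adjusted p. OOEP-AS1 on the opposite strand, with 14.2 times the counts, all on a model of 1 exon with 403 bases, had -0.23 (adjusted p = 0.0709).

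RPL41P5 had 636, 602 and 507 counts with siControl, and 458, 579 and 189 in D-low, D-mid and D-high. Its log2 fold change was -0.70 ± 0.21 (SE, edgeR adjusted p = 0.0378), and -0.32 (adjusted p = 0.126) without D-high. It was also not called by DESeq2 (adjusted p = 0.40), with library totals alone (0.132) or with the trend on length removed (0.283). Its share of the counts of RPL41P5 and RPL41P1, which have the same coding sequence, was 36.6% in that library and between 63.4% and 67.2% in the other libraries. RPL41P1 had -0.14 (adjusted p = 0.457), and RPL41 had -0.04 (0.854). Apart from RPL39P3 and RPL41P5, 10 copies were called, 9 of them lower.

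Of the 12 most counted copies 4 were called, and of the 20 most counted 8, all of them lower, beside 13.0% of all genes (5.97% lower). In a fit on genes with at least 10 counts in every library, 15.7% of all genes were called (7.22% lower). Among the well-counted copies that were not called, RPL7P9 had 4722, 4620 and 4439 counts with siControl and 4820, 5104 and 5672 with siDelta2-4, or 4383 ± 178 and 4282 ± 184 CPM (SD, n = 3 each). Its log2 fold change was -0.03 ± 0.07 (SE, edgeR adjusted p = 0.854), and the groups overlapped. RPL36AP37, whose siDelta2-4 libraries all lay below those of siControl, had -0.17 (adjusted p = 0.202). The groups overlapped in the others that are named here, with log2 fold changes of -0.09 for RPS18P5 (edgeR adjusted p = 0.546), -0.07 for RPL17P6 (0.631), -0.05 for RPL15P3 (0.729), -0.05 for RPL36AP44 (0.826), -0.03 for RPL23AP42 (0.863) and 0.04 for RPL6P27 (0.793). Their SE lay between 0.07 and 0.10. The value of RPL36AP44 is that of spliced models that reach beyond the copy.

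The parent genes were set beside the copies from the same fit. Of the 63 parents of the copies, 11 were called, 10 lower and 1 higher. Their log2 fold changes had a median of -0.08, and 54 lay below 0. With the 14 cytosolic ribosomal protein genes that have no copy in the table, 12 of 77 were called (15.6%), 11 lower and 1 higher, beside the 13.0% of all genes. Of the 12 called copies, 8 had a called parent and 11 a parent with the same sign. Over the 60 pairs of tested copy and parent, 47 had the same sign, and Spearman's rho was 0.45, a description over pairs that share libraries and, in families, a parent. Reads could also be given to either member of a near-identical pair, so copy and parent were not measured independently. Called parents without a called copy were RPL35, RPL36, RPL38 and RPS21, of which RPL36, a large subunit gene, had -0.53 ± 0.08 (SE, edgeR adjusted p = 0.000185). RPL28, the other called gene of the 77, has no copy in the table. With known transcript models alone 20 of the wider list were called (26.3%, all genes 13.6%), and 26 with the trend on length removed (33.8%, all genes 12.3%). Without C-low 40 were called (51.9%, all genes 25.4%). Leaving out any other library gave between 4 and 8 (5.19% to 10.4%), beside 4.85% to 7.54% of all genes.

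**Figure D5:**
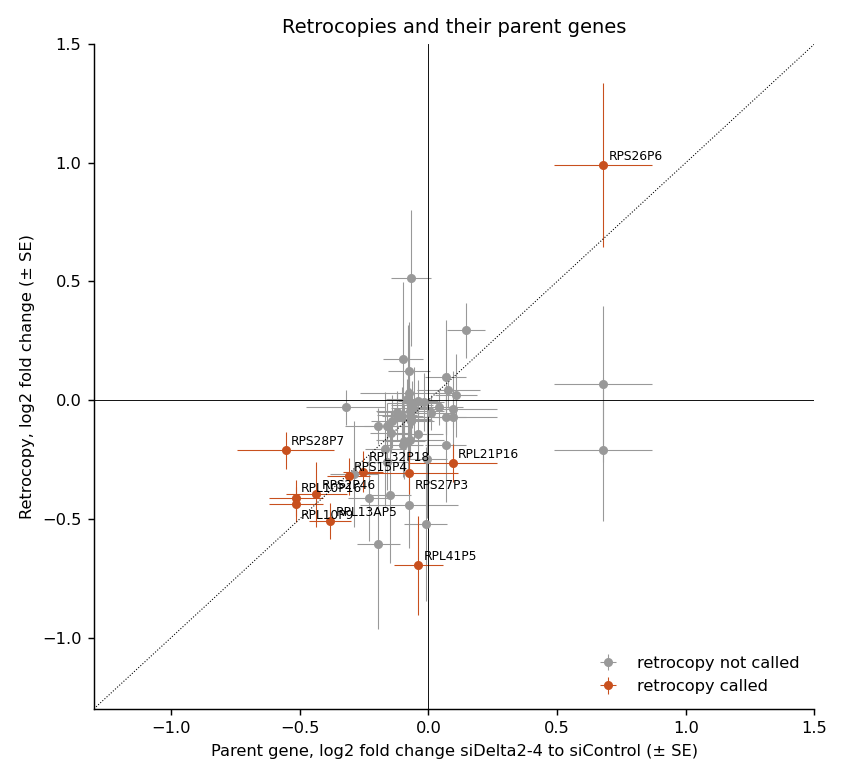
Log2 fold change (siDelta2-4 to siControl, with SE) of each tested retrocopy against that of its parent, for 59 pairs. RPL39P3, at -1.89, is left out, the dotted line marks equal values, and most called copies (orange) and their parents lie in the lower left, with RPS26P6 in the upper right.

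Family totals, in which a parent and all its copies were summed before the fit, do not depend on which of them a read was given to. They leave out counts given to genes on the opposite strand. OOEP-AS1 opposite RPL39P3 held 32262 such counts, beside 3491 in the RPL39 family total. Of 63 families, 14 were called, 13 lower and 1 higher, beside 13.6% of all rows tested in that table (6.45% lower, 7.11% higher). The total of the RPL13A family had -0.51 ± 0.08 (SE, edgeR adjusted p = 5.21e-05), RPL10 -0.45 ± 0.08 (0.000233), RPS15 -0.33 ± 0.08 (0.00813), RPS2 -0.43 ± 0.10 (0.00707), RPS27 -0.31 ± 0.09 (0.0233), RPL32 -0.28 ± 0.08 (0.0300) and RPS28 -0.23 ± 0.08 (0.0766). RPS26 was the family called higher, with 0.39 ± 0.15 (0.0862). RPL39 (-1.19) and RPL41 (-0.31) were also called, and their totals hold the 2 libraries that stood apart for RPL39P3 and RPL41P5. The 4 called families without a called copy were RPL36, RPL38, RPS21 and RPL35, in which at most 2.30% of the counts lay on copies. Without 1 library the number of called families was 37 (C-low), 10 (D-high), 6 (C-high) or 8 (any of the other 3). Of all rows, 25.7% were called without C-low, and between 5.82% and 8.04% without any other library.

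At the level of transcript models, 68 models of retrocopies were tested, and 10 were called, 9 lower and 1 higher, beside 6.91% of all 6768 models tested (2.97% lower, 3.95% higher). All other processed pseudogenes in the table numbered 314, of which 60 passed the filter. Of those, 7 were called (11.7%), near the 13.0% of all genes, 4 lower and 3 higher, with a median log2 fold change of -0.05. Their share of the library lay between 1.85% and 1.95%.

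Retrocopies took 6.77%, 6.64% and 6.44% of the counts in C-high, C-mid and C-low, and 6.14%, 6.05% and 6.08% in D-low, D-mid and D-high. The groups did not overlap, and the means were 6.62% ± 0.166 and 6.09% ± 0.0466 (SD, n = 3 each), a difference of -0.525 percentage points. Retrocopies held 31.8%, 31.6% and 31.9% of the counts of their families in siControl, and 29.9%, 30.8% and 30.4% in siDelta2-4, a difference of -1.34 points. The RPL13A and RPL10 families, with 18.0% of the retrocopy counts, carried much of both: without them the differences were -0.202 and -0.422 points. No p is given for these shares.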

How the data were processed

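Long-read PCR-cDNA libraries of 6 Calu-6 samples were analysed, 3 per siRNA group, grouped by the sample labels, with no count column left out. The deposited values were raw whole-number counts of long reads for each transcript model. The authors made them by aligning reads with minimap2 (2.14) and annotating them with TALON on Gencode 44. The submitters' processing notes also name SAMtools 1.13. The deposited model lengths and exon numbers were used as given.

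Counts were summed per gene, and separately per family (a parent and its copies). The test was that of edgeR 4.0.16 under R 4.3.3 (filterByExpr filter, TMM scaling, quasi-likelihood, 2 groups, no covariate, two-sided, Benjamini-Hochberg over all genes tested). Libraries of 1037468 to 1309241 counts set the precision. The scripts were tested on simulated counts. Parent coding sequences from Gencode 44 were aligned to each annotated copy with 300 flanking bases on GRCh38.

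The members and lists were chosen with earlier results of these data known. Named were all called copies, the 12 most counted, those exceeding their parent, the copies at the threshold, their parents and a few examples, except 1 that is not reported here by name but enters all totals and fits. RPS21, RPL28, RPL35, RPL36, RPL38, the neighbouring genes and the pairs of copies were named after their values were seen. Alternatives were the DESeq2 1.42.0 test, other scalings and filters, known models alone, a length trend removed (loess), a replicate block, an adjusted p under 0.05 and each library left out.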

Additional observations from a re-analysis of the deposited data

How the results depend on the processing

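The 12 called copies became 7 (6 lower, 1 higher) with the length trend removed, and between 6 and 19 with 1 library left out. With the length trend removed, 11.7% of the tested copies were called, beside 12.3% of all genes. With 1 library left out the share was 10.0% to 31.7% of the tested copies, beside 4.85% to 25.4% of all genes. Called ribosomal protein genes (12 of the 77, parents included) became 20 with known models alone, 26 with the length trend removed and between 4 and 40 with 1 library left out. The 14 called families became between 6 and 37, and the 10 called models between 4 and 15. The share of all models called is not given for these fits or for the block below. Their numbers of called models can therefore not be read as an excess. A replicate block, on the numbers that the count columns carry, gave 7 copies, 7 of these genes, 7 families and 9 models. These were 11.7% of the copies and 9.09% of these genes, beside 7.69% of all genes, and 11.1% of the families, beside 7.89% of all family rows. Same-numbered libraries did not vary together (correlations of 0.039, -0.136 and -0.0843). With 3 libraries per group, this cannot show whether the numbers pair the samples. DESeq2 called 8 copies (13.3%, all genes 6.53%), all 8 among the 12, and gave RPL39P3 and RPS26P6 no adjusted p. Without the RPL13A and RPL10 families, chosen after the data were seen, the share differences moved to -0.202 and -0.422 points, and with 1 library left out they lay between -0.613 and -0.447 and between -1.55 and -1.11.

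Signs turned for genes that were not called, and for RPL39P3. RPL15 (0.0097) had -0.017 with DESeq2 and with its size factors, -0.016 with TMM computed without ribosomal protein genes, -0.025 with known models alone, -0.0066 without a filter and -0.17 with the length trend removed. That trend removed, log2 fold changes were 0.045 for RPL15P3, 0.036 for RPL17P6, 0.077 for RPL21P28, 0.089 for RPL23AP42, 0.095 for RPL39, 0.067 for RPL41, -0.042 for RPL6, 0.040 for RPL7P9, 0.040 for RPS18, 0.031 for RPS18P5 and 0.050 for RPS27. Library totals alone raised the median of all genes by 0.068 and these by about as much, so their turns come from the shift of 0: log2 fold changes were then 0.016 for RPL15P3, 0.030 for RPL21P28, 0.040 for RPL23AP42, 0.019 for RPL36AP44, 0.030 for RPL39, 0.031 for RPL41, 0.039 for RPL7P9 and 0.0017 for RPS18. With 1 library left out they ranged from -0.071 to 0.047 for RPL15, -0.12 to 0.23 for RPL21, -0.056 to 0.12 for RPL23A, -0.11 to 0.00054 for RPL23AP42, -0.23 to 0.030 for RPL36A, -0.12 to 0.047 for RPL36AP44, -0.16 to 0.093 for RPL39, -2.38 to 0.18 for RPL39P3, -0.11 to 0.047 for RPL41, -0.092 to 0.15 for RPL6, -0.081 to 0.0015 for RPL7P9 and -0.31 to 0.13 for RPS27. Apart from library totals, the cause of these turns was not tested.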
